A study of Saccharina japonica with 2 samples.

Results

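The unigenes described here are those that the study's catalogue of blue light (BL) response genes of the kelp Saccharina japonica lists under flavonoid biosynthesis, apart from the flavonoid 3'-hydroxylases (F3'H). They are 8 of the 70288 unigenes with a read in either library, and 8 of the 12 in that catalogue group. A unigene is an assembled transcript sequence left after redundant contigs were merged. By their annotation, 3 were homologues of type III polyketide synthase (PKS, entered in the catalogue as CHS, chalcone synthase), 4 of dihydroflavonol reductase (DFR) and 1 of chalcone isomerase (CHI). The CHI homologue was kept because only the hydroxylases were left out of the list. The 4 F3'H homologues served for comparison.

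Sporophytes were held in the dark for 4 h and then placed in sterilized seawater for 2 h under blue LEDs (BL) or in continued darkness (dark). Each treatment was a pool of 10 individuals from which 1 library of polyadenylated RNA was sequenced on an Illumina HiSeq instrument. The labels give the material as mature thalli and vegetative tissue, whereas the study's methods speak of juvenile sporophytes. No list of defining tissue markers was at hand for this kelp, so the label was not checked against one. With 1 library per treatment there was no replicate check, and all tests below compare the reads of these 2 libraries, not the treatments. Intervals and tests cover counting error only.

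The BL library held 11410538 uniquely aligned reads on 69362 unigenes and the dark library 10905306 on 61927. Levels are given as RPKM, that is reads divided by the length of the unigene and by all uniquely aligned reads of the library, and ratios as log2 of BL over dark RPKM. In these bulk libraries, fewer cells that use a gene and less of its RNA per cell cannot be told apart.

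Type III polyketide synthases join malonyl-CoA units into a chain and close it into a ring. In land plants chalcone synthase belongs to this family and starts the flavonoid pathway, after which chalcone isomerase closes the flavanone ring, F3'H adds a hydroxyl group to the B ring and DFR reduces dihydroflavonols on the way to anthocyanidins. In the brown alga Ectocarpus a type III PKS makes phloroglucinol, the building block of phlorotannins, the phenolic compounds of brown algae. Homology to a land plant enzyme therefore does not fix the reaction that a kelp unigene's product catalyses.

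Unigene sequences were not used here, so overlaps among the unigenes were not examined.

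Among the 8 unigenes, 3 were called higher in BL by the study's thresholds for P, FDR and ratio (2-sided Audic-Claverie test, P of at most 0.05, false discovery rate (FDR) of at most 0.001 over all 70288 unigenes, and at least a 2-fold ratio), and 0 were called lower. The study's minimum length of 500 bp was not applied, because 1 member is shorter. They were the PKS homologues Unigene26912 and Unigene42303 and the DFR homologue Unigene25545. The background was high, since 25.0% of all 70288 unigenes were called higher and 11.6% lower. Among the 8159 unigenes of at least 1000 bp, the length class of 7 of the members, the shares were 31.5% and 13.5%. With the minimum of 500 bp applied, they were 33.7% and 16.7%, and the same 3 members were called. The ratio was above 0 for 8 of 8 members, against 62.3% of all unigenes and 54.8% of those of at least 1000 bp. Past the FDR threshold alone, in either direction, were 5 members, beside 31462 of all 70288 unigenes and 74.5% of the long unigenes. The members' median log2 ratio was 0.65, that of all unigenes 0.73 and that of long unigenes 0.16. Among unigenes with at least 50 reads the median was 0.11. The median and the share above 0 over all unigenes include unigenes without a dark read, which count as higher in BL.

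Unigene26912, a PKS homologue of 1728 bp, was the most abundant of the 3 PKS unigenes in either library. It had 2049 reads in BL and 446 in the dark, or 103.9 RPKM in BL (95% interval 99.5 to 108.5) and 23.7 RPKM in the dark (21.5 to 26.0). The log2 ratio was 2.13 (1.99 to 2.29), a 4.39-fold higher level in BL (Audic-Claverie test, FDR 7.94e-227). By RPKM it stood at percentile 96.4 of all unigenes in BL and at percentile 83.5 in the dark. Reads covered 99.5% of its length in BL and 89.1% in the dark.

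Unigene42303, a PKS homologue of 1706 bp whose best match was the same Ectocarpus protein as that of Unigene26912, went further apart between the libraries. It had 647 reads in BL and 6 in the dark, which is 33.2 RPKM (30.7 to 35.9) in BL against 0.323 RPKM (0.118 to 0.702) in the dark. In BL it was the fourth of the 8 members by level and in the dark the last. The log2 ratio was 6.69 with a 95% interval of 5.56 to 8.14, so that the level in BL was 103.1-fold higher, with bounds of 47.1 and 282 (Audic-Claverie test, FDR 7.27e-175). With 1 RPKM added to both levels the log2 ratio was 4.69, below that interval. Among unigenes with at least 50 reads the ratio without this addition stood at percentile 98.3. The BL reads covered 98.8% of the unigene, and the dark reads 10.6%. These 6 dark reads lay on 180 bases, whereas the 24 other unigenes of at least 1000 bp with 6 dark reads had 184 to 540 bases covered, with a median of 360 (a comparison chosen after the values were seen). The dark reads were thus less spread along Unigene42303 than along any of those 24.

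Unigene67417, the PKS homologue with the shortest sequence (390 bp), matched another Ectocarpus PKS protein and had few reads. It had 20 reads in BL and 11 in the dark, or 4.49 RPKM (2.75 to 6.94) in BL and 2.59 RPKM (1.29 to 4.63) in the dark. The intervals overlapped and the log2 ratio of 0.80 (-0.33 to 2.01) did not pass the test (Audic-Claverie test, FDR 0.235), so that no difference was detectable at this depth. Even so, the 20 BL reads covered 98.2% of the sequence and the 11 dark reads 71.0%.

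Within PKS, the 3 unigenes differed in ratio from each other. The log2 ratio of Unigene42303 exceeded that of Unigene26912 by 4.55 (3.41 to 6.01), by Fisher's exact test on the reads of the pair (adjusted p = 1.03e-39 over the 28 pairs of members). It exceeded that of Unigene67417 by 5.89 (4.14 to 7.72; Fisher's exact test, adjusted p = 6.38e-12). The ratio of Unigene26912 was above that of Unigene67417 by 1.34 (0.12 to 2.48; Fisher's exact test, adjusted p = 0.0291), a difference that a Bonferroni adjustment does not keep (adjusted p = 0.495). A comparison of this kind is free of library size, because both unigenes were counted in the same libraries.

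The make-up of the PKS reads differed accordingly. Unigene42303 gave 23.8% of the PKS reads in BL (exact interval 22.2 to 25.5) and 1.30% in the dark (0.477 to 2.80), whereas Unigene26912 gave 75.4% in BL and 96.3% in the dark. Unigene67417 gave 0.736% in BL and 2.38% in the dark. Summed over the 3 unigenes, PKS had 2716 reads in BL and 463 in the dark, and the sum of their levels was 142 RPKM in BL and 26.6 RPKM in the dark. The log2 ratio of the summed reads was 2.49 (2.34 to 2.63), or 5.61-fold higher in BL. With the trend of the ratios over GC content removed, this log2 ratio was 1.19.

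**Figure D1:**
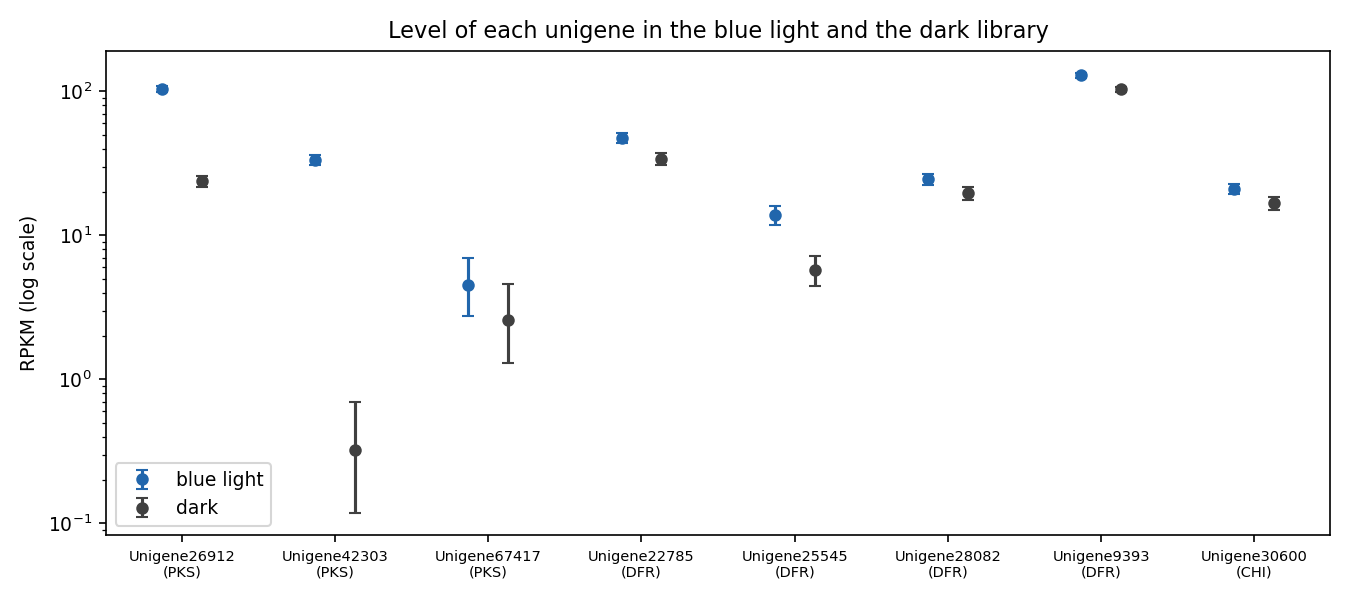
RPKM (log axis) of the 8 unigenes in the BL library (blue) and the dark library (grey), with exact Poisson 95% intervals of the reads. Unigene42303 shows the widest gap, at 33.2 in BL against 0.323 in the dark, while the DFR homologue Unigene9393 is the most abundant member in both libraries at 129 and 103 RPKM.

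**Figure D2:**
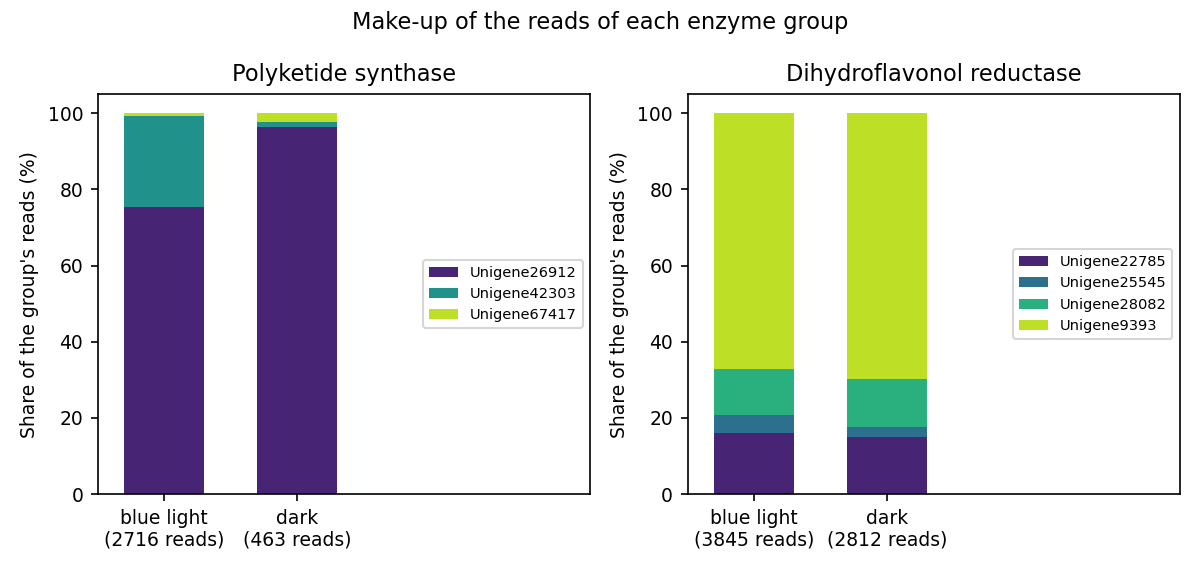
Share of the summed reads of the PKS (left) and DFR (right) unigenes that each unigene gave, in the BL and the dark library, in percent. Unigene42303 takes 23.8% of the PKS reads in BL against 1.30% in the dark, and Unigene9393 has the largest share of the DFR reads, at 67.0% in BL and 69.8% in the dark.

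CHI was represented by Unigene30600, a homologue of 2189 bp matched to an Ectocarpus entry. It had 525 reads and 21.0 RPKM (19.3 to 22.9) in BL, against 399 reads and 16.7 RPKM (15.1 to 18.4) in the dark. The log2 ratio of 0.33 (0.14 to 0.52) stayed short of the 2-fold threshold and of the FDR threshold (Audic-Claverie test, FDR 0.00132). Without this unigene the median of the other 7 members was 0.80.

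Of the 4 DFR unigenes, 3 had the Arabidopsis protein AT4G33360 as their best match, a short-chain dehydrogenase that is known in that plant as a farnesol dehydrogenase, and Unigene28082 matched a castor bean DFR entry. The name DFR thus rests on similarity within a broad family of reductases. By level, Unigene9393 (1745 bp) led all members, with 2578 reads and 129 RPKM (125 to 135) in BL against 1963 reads and 103 RPKM (98.6 to 108) in the dark. Unigene22785 (1144 bp) had 622 reads and 47.6 RPKM (44.0 to 51.5) in BL against 421 reads and 33.7 RPKM (30.6 to 37.1) in the dark. The intervals of the libraries did not overlap for either unigene, but the ratios were small. The log2 ratio was 0.33 (0.24 to 0.41) for Unigene9393 and 0.50 (0.32 to 0.68) for Unigene22785, both past the FDR threshold and below 2-fold (Audic-Claverie test, FDR 1.73e-13 and 1.58e-07).

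Unigene28082 (1661 bp) had 464 reads and 24.5 RPKM (22.3 to 26.8) in BL against 356 reads and 19.7 RPKM (17.7 to 21.8) in the dark. Its log2 ratio of 0.32 (0.11 to 0.52) was not called (Audic-Claverie test, FDR 0.00393). Unigene25545 (1154 bp) was the least abundant DFR unigene and the only one called. It had 181 reads and 13.7 RPKM (11.8 to 15.9) in BL against 72 reads and 5.72 RPKM (4.48 to 7.20) in the dark, a log2 ratio of 1.26 (0.86 to 1.68) or a 2.40-fold higher level in BL (Audic-Claverie test, FDR 2.89e-10).

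The difference of Unigene25545 from the other DFR unigenes was tested directly. Its log2 ratio was higher than that of Unigene22785 by 0.77 (0.32 to 1.22), than that of Unigene28082 by 0.95 (0.49 to 1.41) and than that of Unigene9393 by 0.94 (0.53 to 1.36), with adjusted p = 0.000898, 3.89e-05 and 7.09e-06 by Fisher's exact test. After removal of the trend of the ratios over GC content, these differences were -0.80, 0.56 and -0.46, and each pair still passed. The order against Unigene22785 and Unigene9393 was thus reversed. Among the ratios as counted, the other DFR pairs did not pass, and their intervals cover counting error only. Unigene22785 stood above Unigene28082 by 0.18 (-0.09 to 0.45) and above Unigene9393 by 0.17 (-0.03 to 0.37), and Unigene9393 above Unigene28082 by 0.01 (-0.21 to 0.23). With the trend of the ratios over GC content removed, these differences were 1.36, 0.34 and 1.02, and these pairs then passed. Without that removal, 17 of 28 pairs over all members differed at an adjusted p of at most 0.05, among them all 7 with Unigene42303.

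As a sum, DFR had 3845 reads in BL and 2812 in the dark, with a summed level of 215 RPKM in BL and 162 RPKM in the dark and a log2 ratio of the summed reads of 0.39 (0.32 to 0.46). The direction of this small ratio depends on the processing, since it was -0.034 with median-of-ratios size factors and -0.18 with the GC trend removed. Unigene9393 gave the larger part of it, with 67.0% of the DFR reads in BL and 69.8% in the dark, while Unigene25545 gave 4.71% (4.06 to 5.43) in BL and 2.56% (2.01 to 3.21) in the dark. The PKS sum was higher relative to the DFR sum in BL, at 0.706 PKS reads per DFR read in BL against 0.165 in the dark. The log2 ratio of PKS exceeded that of DFR by 2.10 (1.94 to 2.26; Fisher's exact test, adjusted p = 1.75e-177 over 6 pairs of enzymes). DFR and CHI were not told apart, with a difference of 0.06 (-0.15 to 0.26; Fisher's exact test, adjusted p = 0.594). These tests of enzyme groups used the reads without removal of the GC trend. With it removed, the log2 ratios were 1.19 for the PKS sum, -0.18 for the DFR sum and 0.55 for CHI. The likeness of DFR and CHI thus depends on the processing.

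By level, the order of the members was not fully resolved. In BL the intervals of Unigene28082 and Unigene30600 overlapped. In the dark those of Unigene26912 and Unigene28082, of Unigene28082 and Unigene30600, and of Unigene25545 and Unigene67417 did. Unigene26912 was second of the 8 in BL and number 3 in the dark, behind Unigene22785.

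The F3'H unigenes, at the step that the list leaves out, did not all move one way. Of these, 3 of 4 were called higher in BL and 0 lower, with log2 ratios of 2.96 for Unigene17348, 2.57 for Unigene3413 and 1.98 for Unigene12201, beside the 25.0% of all unigenes and 31.5% of the long ones called higher. Unigene1623, the one with the most reads, had 1569 reads in BL and 2840 in the dark, a log2 ratio of -0.92 (-1.01 to -0.83) that passed the FDR threshold without reaching 2-fold. With it, the F3'H sum of 3377 reads in BL and 3174 in the dark had a log2 ratio of 0.02 (-0.05 to 0.09). In RPKM, which weights shorter unigenes more, the F3'H sum was 199 in BL and 254 in the dark, a log2 ratio of -0.35, beside 2.41 for PKS and 0.41 for DFR. By summed reads, the log2 ratio of PKS exceeded that of F3'H by 2.46 (Fisher's exact test, adjusted p = 1.60e-250). The log2 ratio of DFR exceeded that of F3'H by 0.36, with an interval of 0.26 to 0.46 (Fisher's exact test, adjusted p = 1.14e-12).

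The scaling of the libraries bears on the small ratios. With TMM factors every log2 ratio fell by 0.29, and with median-of-ratios size factors every one fell by 0.42. Under TMM factors Unigene25545 had a log2 ratio of 0.98 and under size factors 0.84, so that only the PKS unigenes Unigene26912 and Unigene42303 were called, beside a background of 20.0% and 18.0% of all unigenes called higher. The ratios of Unigene28082, Unigene9393 and Unigene30600 were 0.03, 0.04 and 0.04 under TMM factors, and -0.10, -0.09 and -0.09 under size factors. A direction for these 3 unigenes therefore depends on the scaling, whereas these 2 factors leave the differences between members as they are. With an assumed biological coefficient of variation, edgeR's exact test called Unigene26912 and Unigene42303 at 0.2, where 14.5% of all unigenes were called higher, and Unigene42303 alone at 0.4, where 1.19% were.

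**Figure D3:**
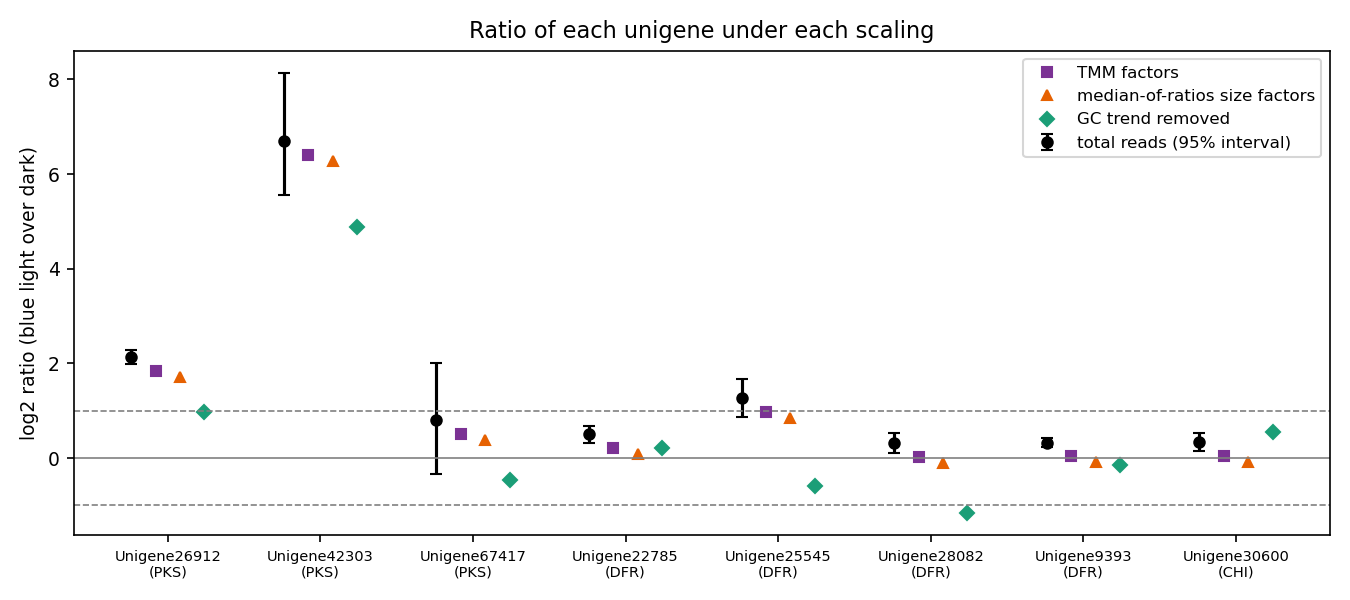
Log2 ratio of BL over dark for the 8 unigenes, scaled by total reads (black, 95% interval of the reads), TMM factors (purple), median-of-ratios size factors (orange) and with the trend over GC content removed (green). Dashed lines mark a 2-fold ratio, which Unigene42303 passes in all 4 scalings (4.87 to 6.69) and Unigene26912 in 3 (0.97 with the trend removed).

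Across the whole assembly, the ratio moved with the GC content of the unigenes. Over 20 classes of GC content, the median log2 ratio ran between -1.07 at 40.5% GC and 1.92 at 65.4% GC. The PKS unigenes had 58.2% (Unigene26912), 60.8% (Unigene42303) and 58.5% (Unigene67417) GC, where the medians were 1.17, 1.82 and 1.26. With this trend subtracted, the log2 ratio of Unigene42303 was 4.87 (Audic-Claverie test, FDR 2.03e-56) and that of Unigene26912 was 0.97, just short of 2-fold (FDR 2.25e-41). The value for Unigene67417 became -0.46, which did not pass the test (FDR 0.440). The part of GC content in these ratios was not tested.

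For DFR, 3 of 4 ratios changed sign when the trend was subtracted. Unigene25545 was the member richest in GC, at 62.7%, where the median over all unigenes was 1.86. With the trend subtracted its log2 ratio was -0.60 (Audic-Claverie test, FDR 0.00772), and its position against Unigene22785 and Unigene9393 turned round, to differences of -0.80 and -0.46. Unigene28082 (59.3% GC) came to -1.16 and was then called lower in BL (FDR 1.91e-27). Unigene22785 (55.6% GC) stood at 0.20 and Unigene9393 (56.2% GC) at -0.14. CHI had the lowest GC content of the members, 53.0%, and its ratio became 0.55. With the trend removed, 1 member was called higher and 1 lower, beside 17.3% and 9.88% of all unigenes. The difference between Unigene42303 and Unigene26912 was 3.90 in that case. Of the F3'H unigenes, Unigene17348 came to 1.10 and Unigene3413 to 1.20, Unigene12201 to 0.80, below 2-fold, and Unigene1623 to -1.78, past 2-fold and the FDR threshold in the lower direction.

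**Figure D4:**
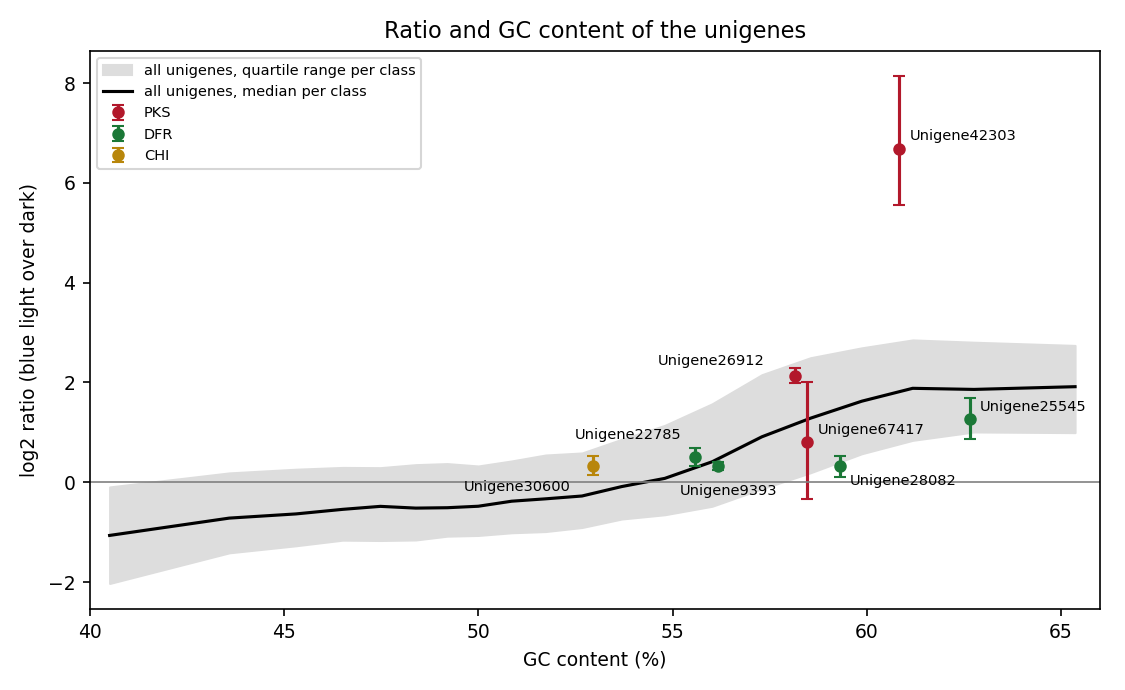
Log2 ratio of BL over dark against GC content in percent for the PKS (red), DFR (green) and CHI (yellow) unigenes, with 95% intervals of the reads, over the median (line) and quartile range (grey) of all unigenes with at least 50 reads in 20 GC classes. Unigene42303 lies far above its class at 6.69 against 1.82, while Unigene25545 and Unigene28082 lie below theirs, at 1.26 against 1.86 and 0.32 against 1.48.

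Unigenes described as acetyl-CoA carboxylase, biotin carboxylase, acyl-CoA synthetase or bromoperoxidase were taken from the 1998 annotated entries at hand. These entries are only a part of the study's annotation, so other unigenes of these kinds may be missing here. Of 7 such unigenes, 3 were called higher in BL and 0 lower, beside 25.0% and 11.6% of all unigenes. All of them were longer than 500 bp, and among unigenes of at least 500 bp the shares were 33.7% and 16.7%. Acetyl-CoA carboxylase and its biotin carboxylase part make malonyl-CoA, the unit that polyketide synthases add. Unigene12220 (acetyl-CoA carboxylase) had 442 reads in BL and 506 in the dark, a log2 ratio of -0.26, and Unigene14684 (biotin carboxylase) 843 in BL and 1028 in the dark, a log2 ratio of -0.35. Neither reached 2-fold. With the GC trend removed, Unigene12220 changed sign to 0.31, and Unigene14684 came to -1.19, past 2-fold. Acyl-CoA synthetases activate fatty acids, and of the 2 found, Unigene11342 (long-chain acyl-CoA synthetase) was called higher, with 1753 reads in BL against 762 in the dark and a log2 ratio of 1.14, while Unigene1174 had a log2 ratio of 0.41 and was not called. Without the GC trend these values were 1.49 and -0.92.

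Bromoperoxidases have been linked in brown algae to the cross-linking of phlorotannins. Unigene10972 (vanadium-dependent bromoperoxidase) had 5462 reads in BL against 543 in the dark, a log2 ratio of 3.27 (3.14 to 3.39), and Unigene12556 (bromoperoxidase) had 1438 in BL against 493 in the dark, a log2 ratio of 1.48. Both were called higher. The other bromoperoxidase, Unigene11478, had a log2 ratio of 0.36, past the FDR threshold but below 2-fold (Audic-Claverie test, FDR 9.64e-12), and was not called. With the GC trend removed the values of these 3 were 1.51, 1.34 and -0.22.

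The annotated unigenes with levels most like those of 3 members were found by distance on the plane of log2 RPKM in BL and in the dark. The search covered 1447 with at least 50 reads and a read in each library. With only 2 libraries, this likeness compares 2 levels and describes no pattern over conditions. Unigene26912 lay nearest to Unigene10990, a homologue of a circadian RNA-binding protein (distance 0.0551, 106 RPKM in BL and 24.5 RPKM in the dark), and then to Unigene11993, a peroxisomal membrane protein homologue (0.119). Among the 1447 searched, none lay close to Unigene42303. The nearest, Unigene47823, a homologue of the blue light receptor phototropin, lay 1.02 away with 201 reads in BL and 2 in the dark. The next, Unigene13650, a keratin associated protein homologue, lay 1.76 away. Unigenes without a dark read were not searched, and Unigene42303 itself had only 6 dark reads. Whether a closer unigene exists outside this search was not tested. Unigene25545 lay nearest to Unigene12561 (Eaf, 0.0627) and Unigene1389 (immunophilin, 0.0736).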

How the data were processed

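For the BL and the dark library the deposited counts are the authors' whole numbers of reads aligned uniquely to each unigene, without normalization. The clean reads had been assembled with SOAPdenovo and merged with TGICL. The aligner is not given in the sources used here. Reads that fit several near-identical unigenes are not in such counts, which can lower the level of close PKS copies. The deposited percent values give, by the file headers, the covered part of each unigene, its GC content and its share of undetermined bases. The authors' files list no unigene without a read, and such unigenes were set to 0 reads.

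RPKM used the sum of uniquely aligned reads. The median was 29 reads per listed unigene in BL and 22 in the dark, so intervals are wide for short unigenes. In the Audic-Claverie test both tails held the observed count and the P value was 2-sided, with Benjamini-Hochberg adjustment over all unigenes with a read, and no length minimum was set. Intervals of ratios and shares are 95% Clopper-Pearson intervals, and those of levels exact Poisson ones. Pairs of members and of enzyme groups were compared by Fisher's exact test with Benjamini-Hochberg adjustment. The GC trend was the line through the medians of 20 GC classes of unigenes with 50 or more reads, of which each library held at least 1, and removing it also sets the median ratio to 0. On simulated reads for 70288 unigenes with 200 changed 4-fold, 86.5% of those were recovered, with 0 false calls. The 200 were drawn from unigenes with at least 50 reads. These simulated reads held counting error only, without a GC trend or variation between individuals. The simulation therefore cannot show how many calls in the real libraries come from such sources.

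All members, the F3'H unigenes, a list chosen by description (acetyl-CoA carboxylase, biotin carboxylase, acyl-CoA synthetase, bromoperoxidase) among the 1998 annotated entries at hand, and the 2 nearest annotated unigenes of 3 members are named. The members and lists were chosen with earlier results of these data known. Alternatives were Fisher's exact test, Benjamini-Yekutieli and Bonferroni adjustment, minimums of 500 bp and 10 reads, a log2 ratio of at least 2, a pseudocount of 1 RPKM, TMM factors and edgeR's exact test with assumed coefficients of variation of 0.2 and 0.4 (edgeR 4.0.16), median-of-ratios size factors (DESeq2 1.42.0), GC trend removal, and leaving out CHI. Python 3.11.15, SciPy 1.17.1, statsmodels 0.14.6 and R 4.3.3 were used. The quantitative PCR was not analysed here.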

Additional observations from a re-analysis of the deposited data

How the results depend on the processing

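Of the 3 members called higher in BL, 3 were called also by Fisher's exact test, with Benjamini-Yekutieli adjustment, from 500 bp upwards and from 10 reads upwards, and 2 with TMM factors, with median-of-ratios size factors, at a log2 ratio of at least 2 and by edgeR's exact test at a coefficient of variation of 0.2. The count was 1 by edgeR's exact test at 0.4, and 1 higher and 1 lower with the GC trend removed. With that trend removed, the log2 ratio changed sign for Unigene67417 (-0.46), Unigene25545 (-0.60), Unigene28082 (-1.16) and Unigene9393 (-0.14), and with size factors for Unigene28082 (-0.10), Unigene9393 (-0.092) and Unigene30600 (-0.089). Under TMM factors, size factors and GC trend removal, in that order, the PKS sum came to 2.20, 2.07 and 1.19, the DFR sum to 0.10, -0.034 and -0.18, the CHI sum to 0.043, -0.089 and 0.55, and the members' median to 0.36, 0.23 and 0.033. Without CHI the median was 0.80. The number of pairs of members that differed was 16 with Bonferroni adjustment and 23 with the GC trend removed, against 17. The shift by scaling follows from its construction, as it moves every unigene alike, and the cause of the GC trend was not tested. With a pseudocount of 1 RPKM the 8 members kept their direction, with log2 ratios between 0.30 (Unigene28082) and 4.69 (Unigene42303). Depth limits Unigene67417, with 20 reads in BL and 11 in the dark, and the upper bound for Unigene42303, with 6 reads in the dark. No replicate could be left out, since each treatment had 1 library. No paired analysis was possible because each treatment had a single library.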
